A study of Caenorhabditis elegans with 6 samples.

Results

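F07B7 and W09B7 are names of 2 neighbouring genomic clones on chromosome V of Caenorhabditis elegans, and genes with no name of their own carry the clone's name and a number. The genes described here are the 14 genes, among 32238 in each of 2 deposited count tables, whose name is F07B7 or W09B7, a point and a number: 11 of F07B7 and 3 of W09B7. The members were chosen by name, and the set was taken up because the antisense counts of F07B7.1 and W09B7.1 differed between the genotypes in these same libraries. Genotype differences of the members are therefore given as a description, with no p-value for any member. Members were tested only on the strand and pair ratios, which do not use genotype. The antisense counts of F07B7.1 and W09B7.1 do enter their strand ratios, so those tests are not independent of the choice.

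Small RNA was sequenced from embryos of 2 genotypes, the double mutant dot-1.1(knu339); ced-3(n1286) and the single mutant ced-3(n1286), with 3 libraries each. The ced-3 mutation is thus present in every library. DOT-1.1 is the worm counterpart of DOT1L, a histone H3 lysine methyltransferase, and CED-3 is the caspase of programmed cell death. Each library is a population of embryos from synchronised adults kept at 20 °C, and inserts of 18 to 40 bases were selected. The labels name 1 allele of each gene and call the replicates biological without saying whether cultures were separate, so the spread behind each p-value is that among these libraries and may be technical. The series asks which small RNAs change with loss of DOT-1.1.

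Total counts ran from 4891289 to 6568937 per library in the antisense table and from 19206363 to 26409182 in the other, which was read as sense because it held 99.5% of the counts of 260 microRNA genes. MicroRNA genes took between 72.9% and 92.4% of sense counts, with the highest shares in replicate 3 of the double mutant and replicate 2 of the single mutant, and TMM factors, which scale the libraries, ran from 0.533 to 1.95. The dot-1.1 gene itself had 23, 40 and 32 sense counts in double mutant libraries, against 75, 66 and 55 in single mutant libraries, and no source used here says which bases the knu339 allele alters, so these values do not check the labels. The embryonic microRNAs mir-35 to mir-42 held 37197613 sense counts over all libraries, against 2497 for let-7 and 378 for lin-4, microRNAs of larval stages. For lin-4 the raw counts were 35, 84 and 208 in the double mutant and 19, 8 and 24 in the single mutant, without overlap. For let-7 they were 327, 391 and 762 in the double mutant and 288, 321 and 408 in the single mutant, which overlap. Whether the genotypes differed in embryo stage was not tested.

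Worms copy many messenger RNAs into small interfering RNAs with RNA-dependent RNA polymerases, so that small RNA of this kind reads antisense to the gene. Argonaute proteins bind these RNAs, and they can silence the matching gene or, in one branch of the pathway, mark it as expressed. Sense counts of a gene can come from fragments of its own transcript. Near-identical gene copies give small RNAs that match each copy, and a table of counts per gene then depends on how such reads were shared out, a step the sources used here leave undescribed.

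The 14 genes span 48977 bases of chromosome V (8824559 to 8873535, WBcel235), with W09B7 at the lower coordinates. RefSeq lists 10 of them as protein-coding, 2 as pseudogenes (F07B7.17 and F07B7.18) and 2 as non-coding RNAs (F07B7.15 and F07B7.16). In each of the 14 the deposited gene width equalled the summed length of its exons in the Ensembl annotation. Exons on the other strand were absent at 11 of the 14. F07B7.15 shares 71 bases with his-54, a core histone gene on the other strand, and F07B7.13 and F07B7.16 share 57 bases with each other.

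The members form part of a segment that the annotation shows a second time. W09B7.1 (8830183 to 8831441, plus strand) and F07B7.1 (8872277 to 8873535) have 4 exons and 3 introns of the same lengths in the same order, and so do W09B7.2 (8828165 to 8829909) and F07B7.2 (8870259 to 8872003). W09B7.3 (8824559 to 8825203, minus strand) and F07B7.14 (8866653 to 8867297) likewise have 3 exons of equal lengths. In each of these 3 pairs the gene at the higher coordinate starts exactly 42094 bases after its copy.

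**Figure D1:**
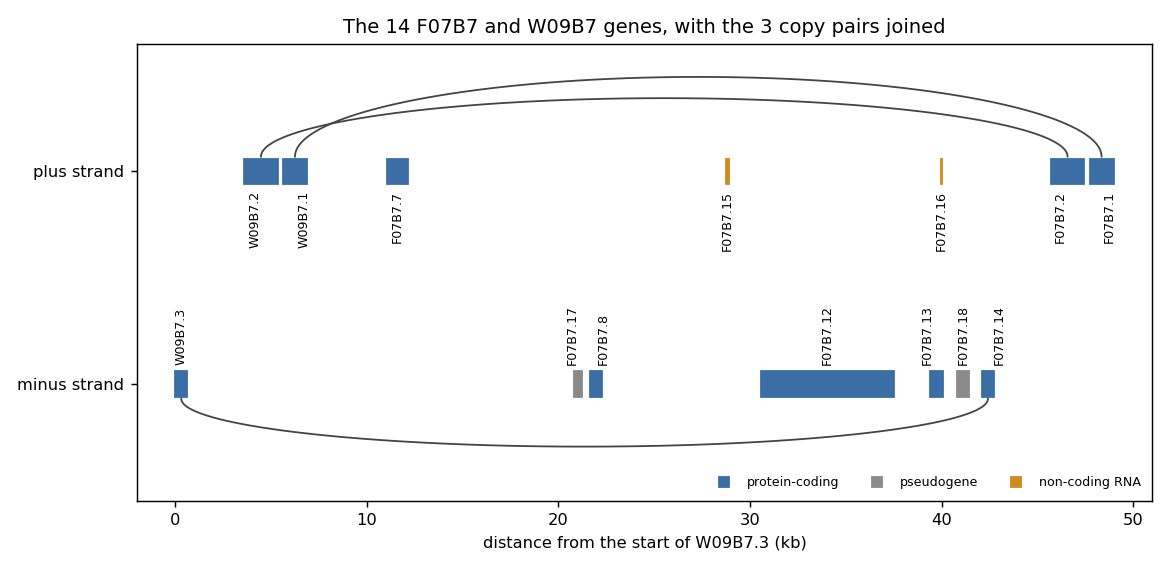
Map of the 14 genes by strand, with distance from the start of W09B7.3 in kb on the x axis and boxes from gene start to gene end, coloured by RefSeq class. Curves join the 3 pairs of members with the same exon lengths, each 42094 bases apart.

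Copies at the same spacing continued beyond the members. Searched after the members' values were known, the annotation held 13 pairs of genes with the same exon structure at 42094 or 42095 bases, 26 genes in all, of which 6 pairs are core histone genes. Among members, F07B7.17 has K06C4.27 as its copy, F07B7.8 has K06C4.1, F07B7.13 has C01B7.7 and F07B7.16 has C01B7.13. Of the 4 members with no copy of the same structure, 3 fall within a larger gene when moved by this distance. F07B7.12, which RefSeq names rpms-1, falls within rpm-1, a ubiquitin ligase gene of synapse development, and ends where it ends. F07B7.7 falls within the pseudogene EGAP798.1 and ends where it ends, and F07B7.15 falls within K06C4.23. F07B7.18 has the same width as F07B7.8, 537 bases, but lies at no such distance from it.

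Most antisense counts of the members lay in F07B7.1 and W09B7.1, and both genes were lower in the double mutant. F07B7.1, a protein-coding gene, had 18, 20 and 13 antisense counts in the double mutant and 115, 54 and 67 in the single mutant. Each library of the double mutant lay below each of the single mutant, before and after scaling. Normalised to 1000000 counts of the TMM-adjusted library, the level was 3.12 ± 0.122 in the double mutant and 13.9 ± 3.13 in the single mutant (SD, n = 3 each).

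W09B7.1, its copy, had 16, 25 and 21 antisense counts in the double mutant and 133, 55 and 77 in the single mutant. Its libraries also kept apart by genotype. The normalised level was 3.91 ± 1.16 in the double mutant and 15.5 ± 4.26 in the single mutant (SD, n = 3 each). The log2 fold change, double over single mutant, was -2.15 ± 0.32 (SE) for F07B7.1 and -1.997 ± 0.37 for W09B7.1, where the median over the 7297 antisense genes tested was 0.026. As 1 row holding the mean of both, the pair had a log2 fold change of -2.08 ± 0.34. Fewer cells that make an RNA and less of it per cell cannot be told apart in whole embryos.

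F07B7.2 and W09B7.2, the adjoining pair of protein-coding genes, were lower on the antisense strand as well, at counts too low for the fit. F07B7.2 had 2, 2 and 2 antisense counts in the double mutant and 11, 17 and 10 in the single mutant. W09B7.2 had 5, 2 and 2 in the double mutant and 12, 10 and 10 in the single mutant. Neither overlapped between genotypes. Among the 7297 antisense genes fitted 4.96% lay wholly below in the double mutant, but neither F07B7.2 nor W09B7.2 was among those fitted. Normalised levels of F07B7.2 were 0.382 ± 0.0985 in the double mutant and 2.41 ± 1.12 in the single mutant, and those of W09B7.2 were 0.559 ± 0.302 in the double mutant and 1.95 ± 0.193 in the single mutant (SD, n = 3 each). With no filter on low counts, the log2 fold changes were -2.66 ± 0.76 (SE) for F07B7.2 and -1.82 ± 0.74 for W09B7.2.

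Of the 14 members, 12 had an antisense count and 3 passed the low count filter: F07B7.1, W09B7.1 and F07B7.15. A gene with counts in 1 genotype alone can pass this filter, so the count of members that passed supports nothing on its own. Libraries of the double mutant all lay below those of the single mutant in 2 of these 3, a pattern that 4.96% of the antisense genes tested showed. These 2, F07B7.1 and W09B7.1, are copies whose antisense values led to the set, so nothing is read from that difference. No gene of the antisense table was called at a Benjamini-Hochberg adjusted p under 0.05 with edgeR, 0% of the genes tested. Without adjustment, 212 genes were higher and 170 lower at p under 0.05, and DESeq2 called 0 higher and 6 lower after adjustment.

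**Figure D2:**
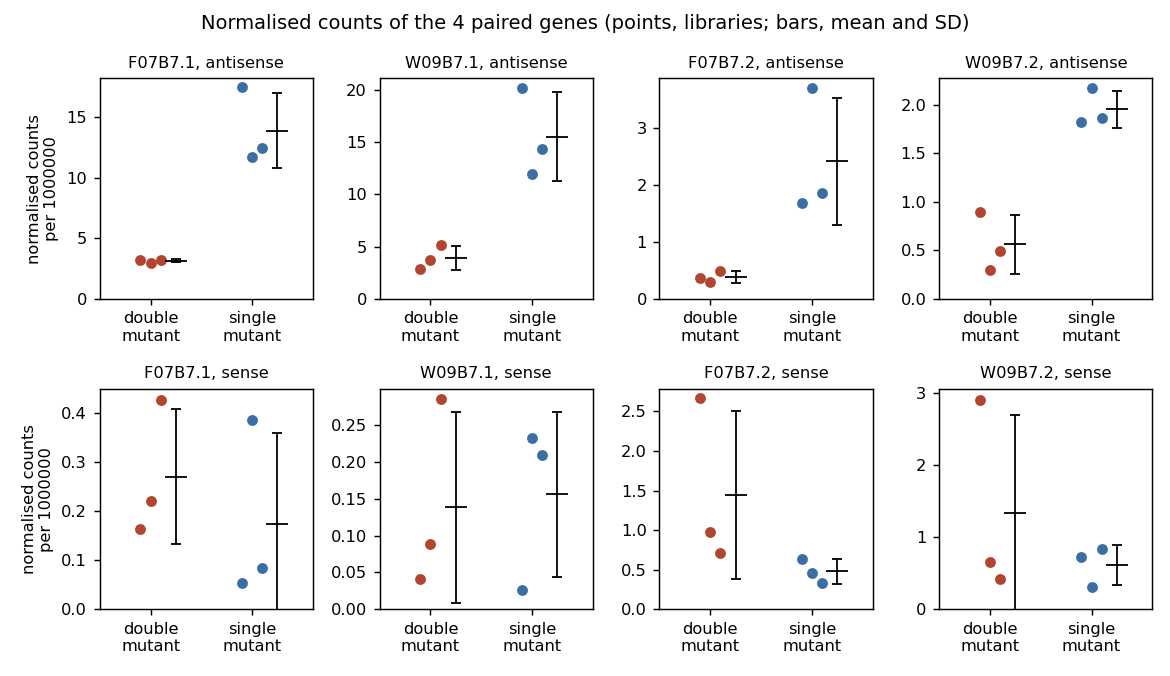
Normalised counts per 1000000 of the 4 paired genes, antisense in the upper row and sense in the lower, each panel with its own y axis. Points are libraries and bars give mean and SD, drawn down to 0 at most. On the antisense strand the double mutant lies below the single mutant in all 4 genes, which are pairs of copies and cannot be counted as separate loci. Of the 7297 antisense genes tested 4.96% showed this pattern, and F07B7.2 and W09B7.2 were not among those tested. The antisense values of F07B7.1 and W09B7.1 led to the set, so nothing is read from that comparison. Sense values lie under 3 per 1000000 throughout.

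F07B7.15, the non-coding RNA gene across from his-54, had 21, 36 and 12 antisense counts in the double mutant and 71, 17 and 40 in the single mutant. Here the genotypes overlapped, with a log2 fold change of -0.86 ± 0.45 (SE). In the 71 shared bases, a read antisense to F07B7.15 is also a sense read of his-54, which had 30, 41 and 16 sense counts in the double mutant and 100, 27 and 53 in the single mutant. K06C4.23, which holds the place of F07B7.15 in the second copy, had 16, 33 and 20 antisense counts in the double mutant and 78, 30 and 60 in the single mutant.

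The other members had few antisense counts. F07B7.12 had 25, 3 and 10 in the double mutant and 14, 8 and 10 in the single mutant, and F07B7.7 had 5, 3 and 5 in the double mutant and 8, 1 and 6 in the single mutant. Both genes overlapped between genotypes. F07B7.18 had 0 in each library of the double mutant and 4, 0 and 2 in the single mutant, while F07B7.8, F07B7.13, F07B7.17 and W09B7.3 had 1 or 2 counts over all 6 libraries. F07B7.14 and F07B7.16 had no antisense count, which allows 3 counts in a library, or between 0.457 and 0.613 per 1000000 unscaled. This limit and the intervals below cover counting error only, since reads amplified by PCR are not independent molecules.

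Per kilobase of exon, the antisense level in the single mutant was highest for F07B7.15, at 45.2 per 1000000, before W09B7.1 at 16.8 and F07B7.1 at 15.05. F07B7.15 is 162 bases wide and shares 71 of them with his-54, whose sense reads there can count as its antisense. Their part in its level was not tested. W09B7.1 and F07B7.1 differed by less than the SD of either gene. F07B7.2 and W09B7.2 followed at 2.54 and 2.055 per kilobase, again closer than the spread of F07B7.2. F07B7.7 stood at 0.812 and F07B7.12 at 0.317. Over both genotypes, W09B7.1 and F07B7.1 had mean normalised antisense levels above 94.3% and 93.4% of the 27271 genes with any antisense count.

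Sense counts of the same genes were low and did not follow the antisense pattern. F07B7.1 had 4, 5 and 6 sense counts in the double mutant and 2, 5 and 2 in the single mutant, and W09B7.1 had 1, 2 and 4 in the double mutant and 1, 3 and 5 in the single mutant. The genotypes overlapped in both. F07B7.2 had 65, 22 and 10 sense counts in the double mutant and 24, 6 and 8 in the single mutant, so that raw counts overlapped and normalised ones did not. W09B7.2 had 71, 15 and 6 in the double mutant and 27, 4 and 20 in the single mutant, with overlap on either scale. In both genes the highest library was replicate 1 of the double mutant.

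On the sense strand F07B7.2 had a log2 fold change of 1.58 ± 0.59 (SE) and W09B7.2 one of 1.08 ± 0.71. Without replicate 1 of the double mutant these were 0.75 ± 0.56 for F07B7.2 and -0.25 ± 0.61 for W09B7.2. Both genes passed the sense filter, as did F07B7.12 with 0.33 ± 0.43. Of these 3 members, 1 lay wholly above in the double mutant after scaling, as did 6.97% of the 7680 sense genes tested, and 0 lay wholly below, as did 5.79%. Called by edgeR in the sense table were 0 genes, or 0%, with 440 higher and 184 lower when an unadjusted p under 0.05 is taken, and DESeq2 called 1 higher and 0 lower. F07B7.13, F07B7.14, F07B7.16 and F07B7.18 had no sense count, which allows between 0.114 and 0.156 per 1000000 in a library. The remaining members had between 3 and 34 sense counts over all 6 libraries, and all overlapped between genotypes.

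In a fit of strand by genotype over 13616 genes, the antisense change minus the sense change was -2.96 ± 0.89 (SE, log2) for F07B7.1, -1.80 ± 1.04 for W09B7.1, -3.96 ± 0.97 for F07B7.2 and -2.64 ± 0.95 for W09B7.2. The other members fitted had -1.80 ± 1.62 for F07B7.7, -0.97 ± 1.05 for F07B7.15 and -0.19 ± 0.83 for F07B7.12. In the whole fit edgeR called 0 genes, or 0%, against 463 higher and 310 lower by unadjusted p under 0.05.

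Which strand dominated was compared within libraries on raw counts. F07B7.1 took 76.8% ± 7.27 of its counts from the antisense strand in the double mutant and 95.6% ± 3.61 in the single mutant (SD, n = 3 each). W09B7.1 took 90.2% ± 5.45 in the double mutant and 96.0% ± 2.86 in the single mutant, and antisense exceeded sense in 6 of 6 libraries for both genes. For the adjoining pair the antisense share was 9.33% ± 6.89 in the double mutant and 53.6% ± 21.3 in the single mutant at F07B7.2. At W09B7.2 it was 14.4% ± 9.5 in the double mutant and 45.2% ± 22.8 in the single mutant. The shares of the double mutant lay wholly below those of the single mutant at F07B7.1, F07B7.2 and W09B7.2, and overlapped with them at W09B7.1. Of the 7 members with a mean of at least 5 counts on either strand, 3 thus lay wholly below, as did 2.73% of the 14402 genes with such a mean and a count in every library. The antisense values that chose the members enter this share, so nothing is read from that difference. Across all genes antisense counts made up between 19.9% and 21.6% of both tables in every library. MicroRNA genes, which took between 72.9% and 92.4% of sense counts, lower this share, so it is no background for other genes.

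**Figure D3:**
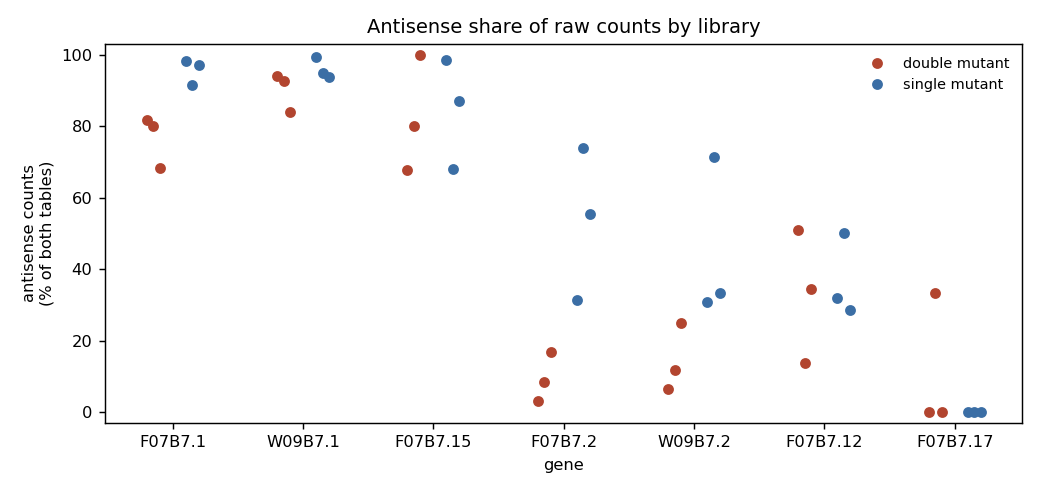
Antisense counts as a percentage of antisense and sense raw counts together, for the 7 members with a mean of at least 5 counts on either strand, with 1 point per library. F07B7.1, W09B7.1 and F07B7.15 lie above 65% in all 6 libraries and F07B7.17 lies at 0% in 5 of 6. F07B7.15 shares 71 bases with his-54 on the other strand.

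Antisense to sense log2 ratios, with 0.5 added to each count, averaged 3.10 ± 1.76 for F07B7.1, 3.89 ± 1.40 for W09B7.1 and 2.81 ± 1.90 for F07B7.15 (SD, n = 6 libraries). F07B7.17, a pseudogene with 6, 2 and 8 sense counts in the double mutant and 3, 7 and 6 in the single mutant, had the opposite bias at -3.16 ± 1.26. Each of these 4 genes leaned the same way in 6 of 6 libraries and had p = 0.03125 in a two-sided exact sign-flip permutation test, the smallest that 6 libraries allow. After adjustment over the 7 members compared, this permutation p was 0.0547, which misses the threshold. For F07B7.1 and W09B7.1 the antisense counts that led to the set enter the ratio, so nothing is read from their p-values. For F07B7.15 sense reads of his-54 in the 71 shared bases can enter the antisense counts, and their part was not tested. F07B7.2, W09B7.2 and F07B7.12 averaged -1.55 ± 2.25, -1.43 ± 1.67 and -0.94 ± 0.94, with exact permutation p of 0.1875, 0.125 and 0.125.

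How a pair divided its counts was compared within each library. Over all libraries F07B7.1 held 287 and W09B7.1 held 327 antisense counts, so F07B7.1 held 46.7% of the pair (95% exact Clopper-Pearson interval 42.7 to 50.8%). By genotype its share was 45.1% in the double mutant and 47.1% in the single mutant. The log2 ratio of F07B7.1 to W09B7.1 averaged -0.21 ± 0.28 (SD, n = 6), with F07B7.1 lower in 5 of 6 libraries (exact sign-flip permutation p = 0.09375, or 0.375 adjusted over 8 comparisons). In 6 of 6 libraries the interval of the share held 50%.

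F07B7.2 held 44 antisense counts to 41 in W09B7.2, a share of 51.8% (interval 40.7 to 62.7%), with a mean log2 ratio of -0.087 ± 0.60 (SD, n = 6 libraries; adjusted exact permutation p = 0.8571). On the sense strand they held 135 and 143 counts, and F07B7.2 took 48.6% (interval 42.5 to 54.6%; log2 ratio 0.033 ± 0.73, n = 6 libraries, adjusted exact permutation p = 1). The sense share held 50% within its interval in 5 of 6 libraries, and replicate 3 of the single mutant, with 8 counts to 20, was the exception. Sense counts of the first pair, 24 to 16, gave F07B7.1 a share of 60.0% (interval 43.3 to 75.1%). F07B7.14 had 0 counts on either strand, where W09B7.3 had 2 antisense and 3 sense. F07B7.18 and F07B7.8, equal in width alone, had 6 and 2 antisense counts and 0 and 10 sense counts. None of the 8 comparisons passed, and none could have. After adjustment, most of the 8 would need the smallest p that 6 libraries allow, 0.03125 in this exact permutation test. Most had libraries in which both genes held equal counts, and these cannot reach it. Nothing is therefore read from this outcome, and such a p does not show that copies have the same level. How reads that match both copies were shared out is not described. The level of each copy cannot be told apart from that step.

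**Figure D4:**
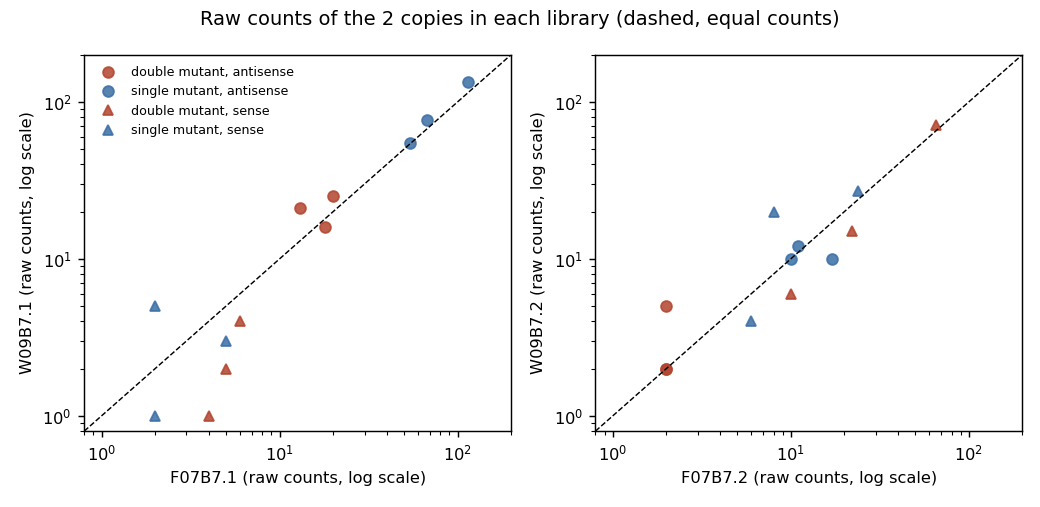
Raw counts of the 2 copies against each other in each library, on log axes, with circles for antisense, triangles for sense and colours for genotype. The points of F07B7.1 and W09B7.1 run along the line of equal counts from 13 and 21 to 115 and 133 antisense counts.

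The 6 histone pairs, which hold no member, gave 11 values with at least 20 counts on a strand. In these the copy at the higher coordinate held between 43.8% and 60.7%, and the 95% interval held 50% in 11 of 11. On the sense strand its share ran from 50.7% to 51.9%. F07B7.17 and K06C4.27 had 32 and 41 sense counts, and F07B7.8 and K06C4.1 had 10 and 8. No genome sequence was used, so how alike the copies are was not measured, and the genes of a pair cannot be counted as separate loci.

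Genes lying among the members and up to 20000 bases to either side mostly had few antisense counts, and are given as a sum. The 21 such genes that are not members summed to 96, 98 and 65 antisense counts in the double mutant and 95, 64 and 64 in the single mutant. The 14 members summed to 92, 93 and 67 in the double mutant and 370, 162 and 223 in the single mutant. Of these 1007 counts, 614 were those of F07B7.1 and W09B7.1, whose antisense values led to the set. Nothing is therefore read from the contrast of members and neighbours. Of the 21 genes 2 passed the antisense filter, rpm-1 and EGAP798.1, with log2 fold changes of 0.50 ± 0.35 (SE) and 0.0049 ± 0.35, and edgeR called neither.

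On the sense strand 12 of the 21 neighbouring genes were tested, 11 with a log2 fold change below 0 and 1 above, and none was called. The 10 core histone genes among them, which encode the proteins that package DNA, all lay below 0, with a median of -1.14 and a range from -1.30 for his-53 to -0.69 for his-52. Copies at the spacing given above are his-50 and his-28, his-49 and his-27, his-51 and his-21, and his-52 and his-22. The 10 genes therefore cannot be counted as 10 separate loci. With library totals or microRNA counts in place of TMM all 10 stayed below 0, at medians of -1.62 and -1.55, where the median of all sense genes tested moved to -0.27 and -0.18. Their raw sense sums were 615, 709 and 345 in the double mutant and 2549, 460 and 1402 in the single mutant, which overlap. After scaling the sums were 25.2, 31.4 and 24.5 per 1000000 in the double mutant and 68.2, 35.5 and 58.5 in the single mutant, which do not overlap. Wholly below in the double mutant lay 6 of the 10 genes, as did 5.79% of the 7680 sense genes tested. Both microRNA-rich libraries are the lowest of their genotype in both kinds of sum, and the part of microRNA content in them was not tested.

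By the likeness rule, the 5 genes outside the members whose antisense levels over the 6 libraries correlated best with F07B7.1, among 6483 genes, were Y51H7C.42, F46C3.7, C46G7.5, Y54E2A.4 and F37C12.10, with Pearson r from 0.981 to 0.995. W09B7.1 had r = 0.974 and F07B7.15 r = 0.692 with F07B7.1. The 6 points share their libraries, and the ranking was read from 6 values only. It used the antisense values of F07B7.1 that led to the set. Lower levels of the 5 genes in the double mutant thus follow from the ranking, and nothing is read from them. Normalised antisense levels were 49.5 ± 1.27 in the double mutant and 69.1 ± 4.51 in the single mutant for Y51H7C.42, and 2.03 ± 0.277 in the double mutant and 5.38 ± 1.02 in the single mutant for F37C12.10 (SD, n = 3 each). Y54E2A.4 had 10.9 ± 2.13 in the double mutant and 68.9 ± 34.6 in the single mutant.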

How the data were processed

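Small RNA of 6 libraries, 3 per genotype, was analysed from 2 tables in which the authors deposited raw read counts per gene, as the table names and values show. The submitters' processing notes name the build WBcel235. Aligner, counter and the treatment of reads that map to several places: not given in the sources used. The deposited tables also hold a gene width, in bases. Column names gave each column its genotype and replicate number, and 0 columns were left over. The titles' short names number replicates 2 and 3 differently, so for those only the genotype is certain.

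Each table was fitted over all genes with edgeR 4.0.16 (R 4.3.3): filterByExpr, TMM, robust quasi-likelihood F test of genotype, Benjamini-Hochberg adjustment, threshold 0.05. Standard errors are the log2 fold change divided by the root of F. Strand by genotype was fitted with library as a block. DESeq2 1.42.0 was an alternative. Pair and strand ratios used a two-sided exact sign-flip permutation test. The fits and the permutation test were checked on simulated counts. RefSeq matched 31418 genes, and exon positions were read from Ensembl's WBcel235 annotation.

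Members and lists were chosen with earlier results of these data known. Named genes are all members, the non-member genes within 20000 bases, and the 5 antisense genes most like F07B7.1. K06C4.23 and the copy pairs were chosen after their values were seen.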

Additional observations from a re-analysis of the deposited data

How the results depend on the processing

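The number of genes called was 0 in each of the 3 fits and depended on the setting. For antisense counts DESeq2 called 6 genes, edgeR with no low count filter 114 (89 higher and 25 lower) and edgeR with the scaling of sense counts called 3. For sense counts DESeq2 called 1, no filter gave 117 (102 higher and 15 lower), and leaving out the 2 microRNA-rich libraries gave 161 (148 higher and 13 lower). For strand by genotype no filter gave 7. Leaving out 1 library at a time gave 0 in the antisense fits, 0 to 6 in the sense fits and 0 to 73 for strand by genotype, with both of these highest without replicate 3 of the double mutant. No pair or strand ratio was called under any setting. With 5 libraries the smallest exact permutation p is 0.0625, and the pair ratios could not pass with 6 libraries either.

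The antisense log2 fold change stayed below 0 in 15 of 15 alternatives for F07B7.1 (-2.28 to -1.97) and in 14 of 14 for W09B7.1 (-2.39 to -1.77). Since the raw counts of both genes kept apart by genotype, these settings could hardly turn the sign, and they add no support. Genotype p-values of the members are not given under any setting, since these antisense values chose the set. The sense change of F07B7.12 turned to -0.094 with library totals and -0.022 with microRNA scaling. With 1 library left out, direction turned for the sense change of W09B7.2 (-0.25 to 1.45), the strand difference of F07B7.12 (-1.05 to 0.33) and F07B7.15 (-2.31 to 0.15), and the log2 ratio of F07B7.2 to W09B7.2, antisense (-0.25 to 0.12) and sense (-0.099 to 0.29). The causes were not tested.

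With replicate number as a block, 0 genes were called in either table and the log2 fold changes were -2.13 for F07B7.1 and -1.98 for W09B7.1. Deviations of same-numbered libraries correlated at 0.640, -0.022 and -0.034 for antisense and 0.646, 0.014 and -0.136 for sense in replicates 1, 2 and 3. Replicate 1 thus deviated together, but not every number did, and numbers 2 and 3 are uncertain, so the numbers were not taken as pairs. Counts under 20 limit what can be read from F07B7.2, W09B7.2 and most other members.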
